A study of Homo sapiens with 6 samples.

Results

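The genes described are 10 genes of the contractile actin cytoskeleton and of its transcriptional control: TAGLN, ACTA2, CNN1, TPM1, MYL9, CCN1, CCN2, ANKRD1, SRF and YAP1. They were chosen by symbol, with earlier results of these data known. All 10 were found among the 61860 gene rows of the deposited tables and among the 18740 genes that passed the filter on low counts. RNA-seq after removal of ribosomal RNA was run on 786-O, a human line established from clear cell renal carcinoma, without functional VHL and labelled as kidney epithelial cells. Of the 6 libraries, 3 came from cells with an shRNA directed at METTL3, the enzyme of the m6A writer complex that methylates adenosines of mRNA, and 3 from cells with a control shRNA, stably expressed in either case. All 6 share that line, and the labels name no other treatment. The libraries of each group are called A, B and C, as in the tables. The columns of the METTL3 shRNA group carry a number that no label explains and were assigned to it by elimination. The labels do not name the hairpin, do not say how many hairpins or clones were used, and do not say whether replicates were separate cultures. The p-values therefore measure only the spread among these libraries, which may be technical.

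SRF is a transcription factor that binds the CArG box, a short element with an A and T core, and drives genes of the actin cytoskeleton when its cofactors of the MRTF family are released from unpolymerised actin and enter the nucleus. YAP1, restrained by the kinases of the Hippo pathway, acts in the nucleus through the DNA-binding TEAD factors, and CCN1, CCN2 and ANKRD1 are among its best-known targets. Both routes respond to cell shape and the tension of actin fibres, and several genes answer to both.

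The sequences to which these factors bind are shown for the members whose promoter window held more than 1 match. The 250 bases before the annotated start of CCN2 and ANKRD1 are printed with the TEAD motif GGAATG (the reverse complement of CATTCC) in capitals, and those of SRF with the CArG box in capitals, each 5′ to 3′ on the strand of the gene (RefSeq, GRCh38.p14). CCN2 lies on the minus strand at chr6:131951373-131951622, ANKRD1 on the minus strand at chr10:90921088-90921337 and SRF on the plus strand at chr6:43171019-43171268. Starts and distances here are from RefSeq, while the gene positions given further below are from GENCODE, which can place the start elsewhere. The GENCODE start of ANKRD1, at 90921276, lies within the printed bases, and that of SRF, at 43171299, lies after them.
CCN2: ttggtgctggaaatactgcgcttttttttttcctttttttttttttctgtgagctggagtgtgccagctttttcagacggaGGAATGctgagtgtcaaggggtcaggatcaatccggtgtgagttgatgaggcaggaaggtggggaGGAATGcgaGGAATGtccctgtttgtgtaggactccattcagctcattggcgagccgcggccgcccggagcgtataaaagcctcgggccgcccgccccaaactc
ANKRD1: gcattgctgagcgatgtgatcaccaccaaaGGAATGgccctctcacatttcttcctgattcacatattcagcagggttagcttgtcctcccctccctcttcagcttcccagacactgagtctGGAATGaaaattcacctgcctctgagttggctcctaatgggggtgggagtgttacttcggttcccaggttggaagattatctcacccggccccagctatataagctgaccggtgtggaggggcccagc
SRF: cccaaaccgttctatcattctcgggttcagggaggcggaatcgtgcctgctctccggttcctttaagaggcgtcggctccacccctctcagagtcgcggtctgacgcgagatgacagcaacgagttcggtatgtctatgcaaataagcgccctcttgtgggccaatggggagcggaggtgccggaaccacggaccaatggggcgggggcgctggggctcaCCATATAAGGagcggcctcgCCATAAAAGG
In CCN2 the 3 copies began 169, 104 and 95 bases before the start, and in ANKRD1 the 2 copies began 220 and 128 bases before it. In SRF the 2 CArG boxes, CCATATAAGG and CCATAAAAGG, began 30 and 10 bases before the start.

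The search covered 300 bases per window, 250 before and 50 after the start, on both strands, and 7 of the 10 members had a window (TAGLN, MYL9 and CCN1 were not matched). Besides CCN2 and ANKRD1, YAP1 held 1 TEAD motif, and ACTA2 held 1 in the second of its windows, so that 4 of 7 members held at least 1, against 16.7% of the 27305 genes with a window. At least 3 copies, as in CCN2, were found in 0.165% of genes, and at least 2 CArG boxes, as in SRF, in 0.0403%. Among the other contractile and actin-binding genes listed below, 12 of 31 held a CArG box, against 1.6% of all genes, and 16 of 31 held a TEAD motif. Among the other YAP and TEAD targets 0 of 18 held a CArG box and 10 of 18 a TEAD motif, so the TEAD motif was about as frequent in both lists. These are matches of letters and not measured binding. No CArG box was matched in the windows of ACTA2, CNN1, TPM1, CCN2, ANKRD1 and YAP1. The box was matched only as CC and GG around a core of A and T alone. Variants with another base in the core, and boxes outside the window, were therefore missed.

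METTL3 itself had 11.3, 9.84 and 11.4 CPM in METTL3 shRNA libraries A, B and C, and 37.2, 38.1 and 37.6 CPM in control libraries A, B and C, a log2 fold change of −1.80 (SE 0.08, edgeR adjusted p = 1.45e-07). CPM are counts scaled to a common library total after TMM adjustment. Library totals ran from 100534896 to 101473388 in the METTL3 shRNA group and from 102420127 to 103624456 in the control group. All 9 markers of 786-O and renal tubule cells were tested. PAX8 (177 CPM on average in METTL3 shRNA libraries and 142 CPM in control libraries) and VIM (2960 CPM and 1461 CPM in METTL3 shRNA and control libraries) were called higher. KRT19 was called lower (3.14 CPM and 4.63 CPM in METTL3 shRNA and control libraries), and PAX2, EPAS1, CDH2, CDH6, KRT8 and KRT18 did not pass. Markers of other contractile cells were near 0. The summed level of 7 of the 8 listed smooth muscle and pericyte markers ran from 1.13 to 1.46 CPM in METTL3 shRNA libraries. In control libraries it ran from 1.49 to 2.02 CPM, and MYOCD had 0 counts in all 6 libraries. RGS5, a pericyte marker, was not matched to a single row by its symbol and is not in the sum. The summed level of 8 fibroblast markers ran from 2.17 to 2.36 CPM in METTL3 shRNA libraries and from 3.86 to 4.61 CPM in control libraries, with COL3A1 at 0 in all 6. Both sums were lower where the members fell, and their part in the results was not tested. The 4 tested smooth muscle markers did not move together. In METTL3 shRNA and control libraries NOTCH3, called lower, had 0.0853 and 0.409 CPM. SYNPO2 (0.341 and 0.549 CPM), LMOD1 (0.577 and 0.458 CPM) and MYH11 (0.275 and 0.265 CPM) did not pass. MYH11, DES, LMOD1, ACTG2 and SYNPO2 are also among the other contractile genes listed below. The 5 endothelial markers summed to at most 0.185 CPM in METTL3 shRNA libraries and 0.245 CPM in control libraries, and the 6 leukocyte markers, nearly all from the lysosomal gene CD68, to 87.8 to 115 CPM in METTL3 shRNA libraries and 49.3 to 58.5 CPM in control libraries. In bulk samples fewer cells of a type and less RNA per cell cannot be told apart.

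Of the 10 genes, 5 fell in METTL3 shRNA cells, 0 rose and 5 did not pass the test (quasi-likelihood test of edgeR, threshold of 0.05 after Benjamini-Hochberg adjustment over all genes). The genes that fell were the transgelin TAGLN, the secreted matricellular proteins CCN1 and CCN2 and the myosin light chain MYL9, by 38.7%, 27.6%, 25.4% and 20.1%, and the calponin CNN1. CNN1, at 3 to 5 counts per METTL3 shRNA library, passed the filter on low counts only through the control libraries, and without it 4 of 9 genes were called lower. Over all tested genes 16.9% were called lower and 16.5% higher. The 10 genes were chosen with earlier results of these data known, so these shares describe the set and do not test it. Among genes with a mean of at least 10 CPM, 21.4% were called lower and 40.1% in either direction, and 3 of the 8 members at that level were called, all lower. At an unadjusted p under 0.05, 0 members were higher and 7 lower. Of all 18740 tested genes, 4073 were higher and 4191 lower at that threshold. DESeq2 and limma-voom also called 0 members higher. The 3 METTL3 shRNA libraries lay below all 3 control libraries for 6 members, the 5 called and SRF, where 23.9% of all tested genes did so, and above them for 0, where 23.4% did (47.4% in either direction). Without CNN1 they lay below for 5 of 9. The median log2 fold change was −0.27 for the 10 genes, −0.22 without CNN1 and −0.0030 for all tested genes.

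**Figure D1:**
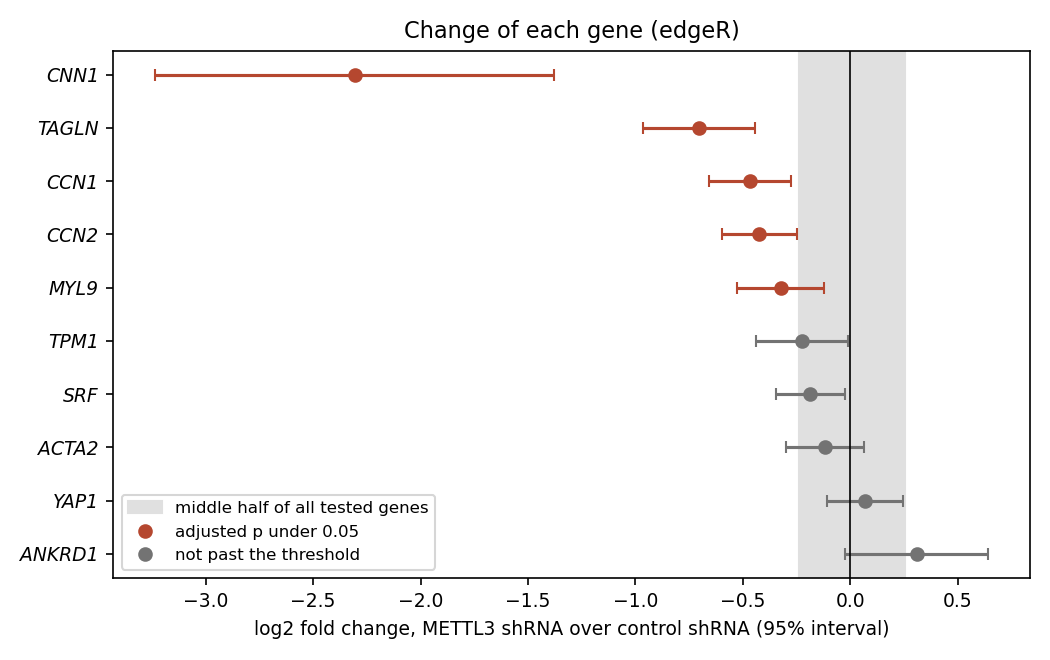
Log2 fold change of each gene, METTL3 shRNA over control shRNA, with its 95% interval from the edgeR fit (3 libraries per group). The grey band spans the quartiles of all 18740 tested genes, from −0.24 to 0.26, and CNN1, TAGLN, CCN1, CCN2 and MYL9 (red) are those past the threshold.

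The scaling set the direction of small changes. With library size in place of TMM the median over all genes stood at −0.11, and 29.6% of the called genes were higher, against 49.4% with TMM. The members called lower were then 7, with TPM1 and SRF added, where 25.2% of all genes were called lower, and the members called higher were 0, where 10.6% were. Transcripts of the mitochondrial genome took 7.77% to 8.50% of the counts in METTL3 shRNA libraries and 4.23% to 4.75% in control libraries. With these transcripts left out of the table and TMM kept, 5 members were called lower (17% of all genes). No member's log2 fold change then moved by as much as 0.01. TMM already adjusts for composition, so this fit does not bear on library size scaling, under which the removal was not run.

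The members' count was set against all genes under each other fit as well. DESeq2 called 5 members lower (17.1% of genes lower, 16.6% higher), and limma-voom 5 (16.8% lower, 16.5% higher). DESeq2-type size factors in edgeR also gave 5 (16.8% lower). Without a filter 5 members were lower and ANKRD1 was higher (10.6% of genes lower, 10.3% higher). With at least 1 CPM in 3 libraries CNN1 was not tested, and 4 of 9 members were lower (20.6%). The limma fits called 6 of 9 tested members lower on log2(FPKM + 1) (24.8%) and on log2(FPKM + 0.1) (24.7%), again without CNN1. On log2(FPKM + 1) without a filter 6 of 10 were lower (7.16%). In every fit that tested CNN1, it is among the members counted as lower. With the column letter as a block 6 were lower (19%). The number lower was 5, 4 and 5 without METTL3 shRNA library A, B or C (13.1%, 10.2% and 17.4% of genes), and without library B ANKRD1 was higher (10.7% of genes higher). It was 4, 5 and 6 without control library A, B or C (14.1%, 12.2% and 12.1%).

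Among the contractile proteins, TAGLN, which encodes transgelin, an actin-bundling protein and early marker of smooth muscle differentiation, fell the most of those with more than a trace of expression. It had 4.57, 3.54 and 4.35 CPM in METTL3 shRNA libraries A, B and C, and 6.88, 6.22 and 7.22 CPM in control libraries A, B and C. Every METTL3 shRNA library lay below every control library. The log2 fold change was −0.71 (SE 0.12, edgeR adjusted p = 9.22e-04). TAGLN (ENSG00000149591) lies on chromosome 11 from 117199321 to 117204782 in GRCh38. It shares 446 exon bases with PCSK7 on the opposite strand, a gene with 1137 to 1333 counts in METTL3 shRNA libraries and 1486 to 1717 in control libraries, more than the 344 to 436 and 663 to 795 counts of TAGLN. With the strand setting not given in the sources used here, reads of TAGLN and PCSK7 over those bases cannot be told apart.

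MYL9, a regulatory light chain of smooth muscle and non-muscle myosin II whose phosphorylation switches on contraction, had 83.0, 68.7 and 89.4 CPM in METTL3 shRNA libraries A, B and C. In control libraries A, B and C it had 106, 98.3 and 97.4 CPM, and the groups did not overlap. It fell by 0.32 on the log2 scale (SE 0.09, edgeR adjusted p = 0.0185). The call was lost without METTL3 shRNA library B, the lowest of the 6, where the value was −0.22 (edgeR adjusted p = 0.0837), and without control library A, where it was −0.28 (edgeR adjusted p = 0.0655). MYL9 (ENSG00000101335) is on chromosome 20 from 36541484 to 36551447.

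CNN1, which encodes calponin 1, an inhibitor of myosin ATPase typical of mature smooth muscle, was barely expressed. The 3 METTL3 shRNA libraries held 5, 4 and 3 counts (A to C), and the control libraries held 19, 18 and 30 (A to C). A difference was therefore built into its being tested. Summed over libraries and scaled, its level in METTL3 shRNA cells was 0.197 of that in control cells (95% exact counting interval 0.0969 to 0.367, counting error only). The edgeR log2 fold change was −2.31 (SE 0.43, edgeR adjusted p = 0.00156). With at least 1 CPM required, and in the filtered FPKM fits, CNN1 was not tested. It lies on chromosome 19 from 11538717 to 11550323 (ENSG00000130176).

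TPM1, the tropomyosin that coats actin filaments and gates access of myosin, was among the most abundant of the 10. It had 677, 687 and 664 CPM in METTL3 shRNA libraries A, B and C, and 889, 795 and 683 CPM in control libraries A, B and C. METTL3 shRNA library B lay above control library C, so the groups overlapped, and the spread of the control libraries was the wider. The log2 fold change of −0.22 (SE 0.10) did not pass (edgeR adjusted p = 0.1). Without control library C it was −0.32 and passed (edgeR adjusted p = 0.0284), as it did with library size scaling (−0.33, edgeR adjusted p = 0.00924) and in both limma fits on filtered FPKM (−0.33 each, limma adjusted p = 0.0199 and 0.0194). The median over all genes was −0.113 with library size scaling and −0.115 and −0.094 in these FPKM fits, against −0.003 with TMM. TPM1 (ENSG00000140416, chromosome 15, 63042632 to 63071915) has 34 annotated transcripts, which the gene counts do not separate. Of its antisense partners, TPM1-AS had 142 to 215 counts in METTL3 shRNA libraries and 91 to 126 in control libraries.

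ACTA2, smooth muscle alpha-actin, did not pass. It had 96.6, 87.5 and 85.4 CPM in METTL3 shRNA libraries A, B and C, and 95.1, 90.8 and 106 CPM in control libraries A, B and C. The groups overlapped. Its log2 fold change was −0.12 (SE 0.08, edgeR adjusted p = 0.300), with a 95% interval from −18.7% to 4.41%. ACTA2 (ENSG00000107796, chromosome 10, 88935074 to 88991339) shares exon bases with FAS and ACTA2-AS1 on the opposite strand. Actins resemble each other closely in sequence, as do the myosin light chains, so that reads of near-identical members can be divided among them in ways that depend on the counting.

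**Figure D2:**
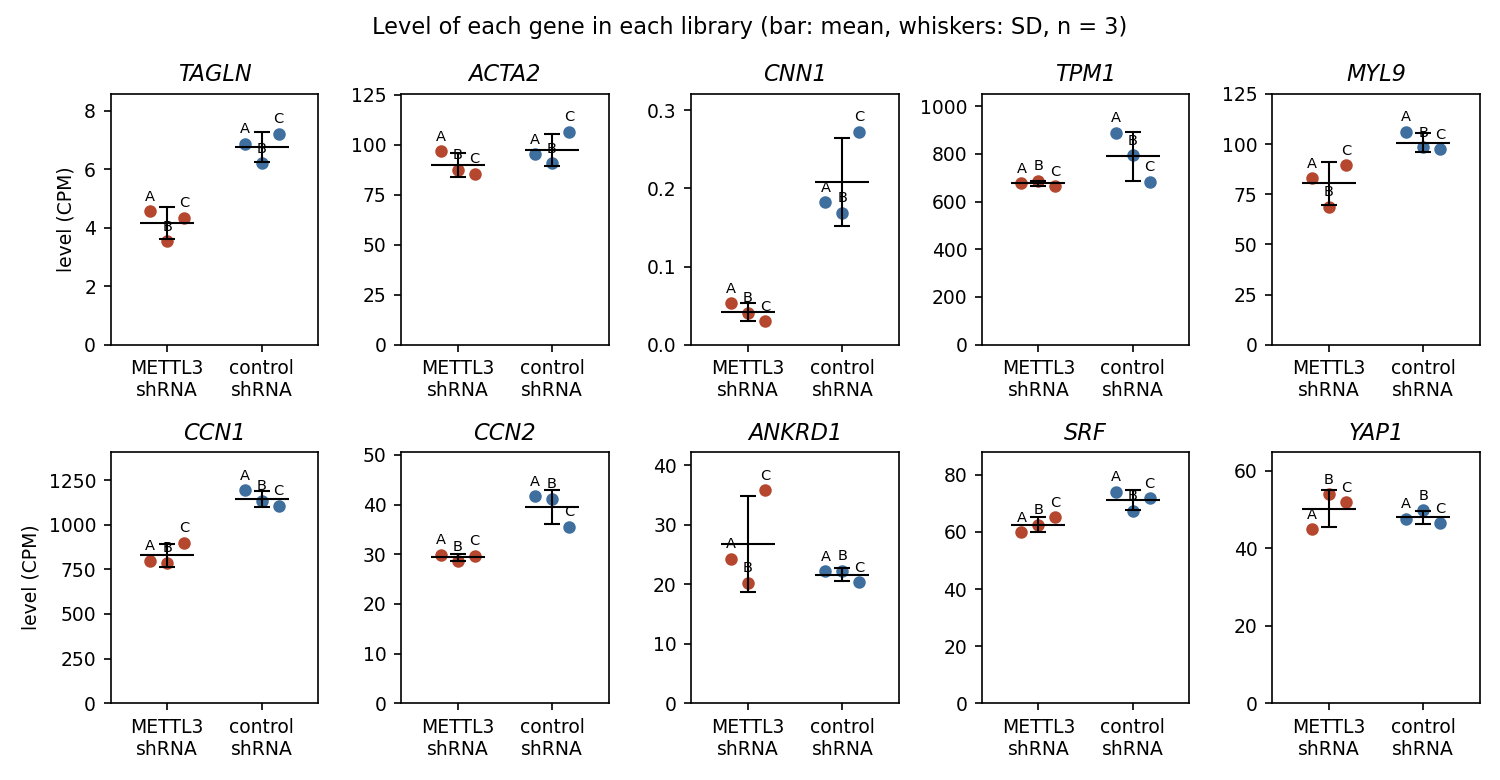
CPM of each of the 10 genes in METTL3 shRNA libraries (red, left) and control libraries (blue, right), lettered A to C, with the mean and SD of 3. The groups are apart for TAGLN, CNN1, MYL9, CCN1, CCN2 and SRF and overlap for ACTA2, TPM1, ANKRD1 and YAP1.

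The secreted targets fell together. CCN1, a matricellular protein that binds integrins and promotes adhesion, had 798, 787 and 900 CPM in METTL3 shRNA libraries A, B and C. In control libraries A, B and C it had 1193, 1134 and 1106 CPM. The highest METTL3 shRNA library lay well below the lowest control library. CCN1 fell by 0.47 on the log2 scale (SE 0.09, edgeR adjusted p = 0.00179). The gene (ENSG00000142871) spans 85580761 to 85583962 on chromosome 1, and no other annotated gene overlaps it.

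CCN2, connective tissue growth factor, a mediator of matrix production and fibrosis, had 29.9, 28.6 and 29.7 CPM in METTL3 shRNA libraries A, B and C. It had 41.7, 41.2 and 35.5 CPM in control libraries A, B and C. The METTL3 shRNA libraries were close to each other and all below the control libraries, of which C was the lowest. The log2 fold change was −0.42 (SE 0.08, edgeR adjusted p = 0.00180). CCN2 (ENSG00000118523) lies on chromosome 6 from 131948176 to 131951373, and the antisense gene AL133346.1, with which it shares 195 exon bases, had at most 5 counts in METTL3 shRNA libraries and 9 in control libraries. Centred on their means, the profiles of CCN1 and CCN2 over the 6 libraries differed by a root mean square of 0.08 in log2 CPM, the smallest difference of any pair among the 10. Genes with a like group difference come out close by this measure. Genes outside the 10 lay closer still, ZBTB9 to CCN1 (0.01) and IFI35 to CCN2 (0.02).

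ANKRD1, a cardiac ankyrin repeat protein that links titin-based tension to the nucleus, another common readout of YAP, did not pass the test. It had 24.3, 20.2 and 35.8 CPM in METTL3 shRNA libraries A, B and C, and 22.2, 22.3 and 20.3 CPM in control libraries A, B and C. METTL3 shRNA library C stood above the rest, and library B lay below all control libraries. The log2 fold change of 0.31 (SE 0.15) did not pass (edgeR adjusted p = 0.139), and its 95% interval ran from −1.58% to 56.0%. Without METTL3 shRNA library C the value was 0.05 (edgeR adjusted p = 0.750), and without METTL3 shRNA library B it was 0.48 and passed (edgeR adjusted p = 0.0281). ANKRD1 (ENSG00000148677) lies on chromosome 10 from 90912096 to 90921276.

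The regulators themselves did not pass the test. SRF had 60.0, 62.5 and 65.1 CPM in METTL3 shRNA libraries A, B and C, and 74.2, 67.4 and 71.9 CPM in control libraries A, B and C. The groups did not overlap, but the gap between METTL3 shRNA library C and control library B was small. The log2 fold change was −0.19 (SE 0.07, edgeR adjusted p = 0.0682). With library size scaling it was −0.30 and passed (edgeR adjusted p = 0.0122), and it passed in the 3 limma fits on FPKM (values of −0.30 and −0.28, limma adjusted p from 0.0200 to 0.0468). The filtered FPKM fits had medians over all genes of −0.115 and −0.094, near the −0.113 of library size scaling. These passes are therefore not separate from that scaling. SRF (ENSG00000112658) lies on chromosome 6 from 43171299 to 43181507.

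YAP1 had 44.9, 53.9 and 51.9 CPM in METTL3 shRNA libraries A, B and C, and 47.6, 49.8 and 46.4 CPM in control libraries A, B and C. The control libraries lay within the range of the METTL3 shRNA libraries. The log2 fold change was 0.07 (SE 0.08, edgeR adjusted p = 0.560), with a 95% interval from −7.37% to 18.6%, and its sign turned with library size scaling (−0.04). YAP1 (ENSG00000137693) lies on chromosome 11 from 102110461 to 102233423. WWTR1, which encodes TAZ, the paralogue of YAP1, was looked up after its values were seen and had a log2 fold change of −0.18 (SE 0.07, edgeR adjusted p = 0.0812).

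**Figure D3:**
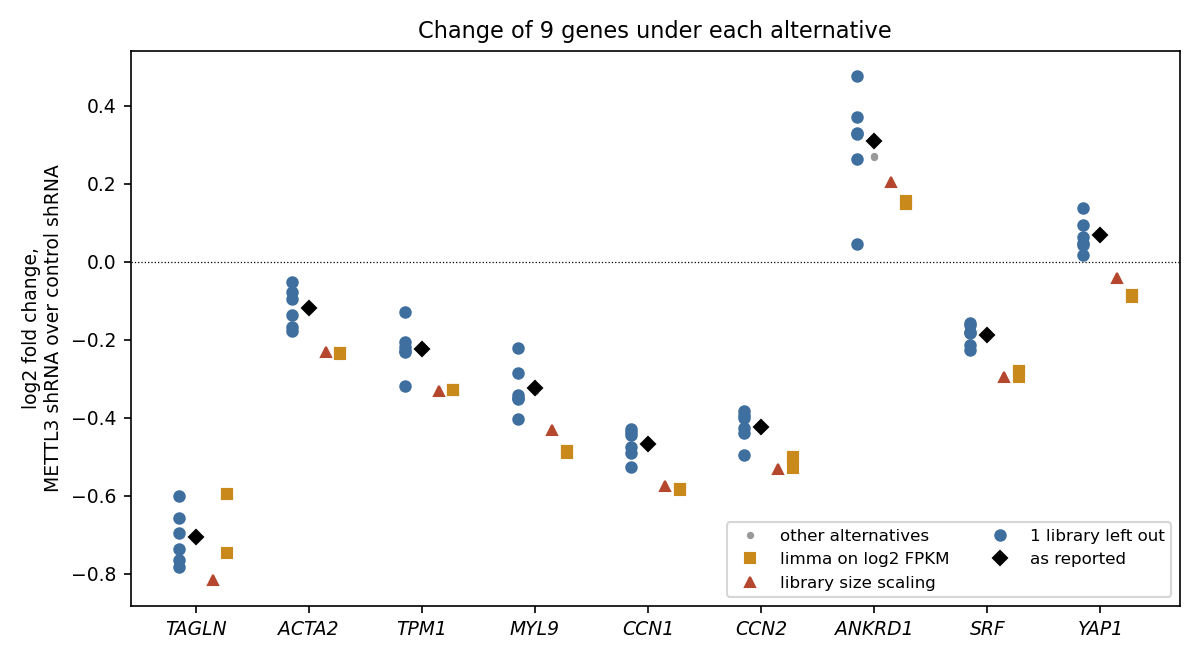
Log2 fold change (METTL3 shRNA over control shRNA) of 9 genes, CNN1 left out for scale, as reported and under each of 17 alternatives. TAGLN, CCN1 and CCN2 stay below −0.3 throughout, ANKRD1 moves between 0.05 and 0.48, and YAP1 crosses 0.

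Per transcript length, the 10 genes differed in level by orders of magnitude. On the deposited FPKM scale (fragments relative to transcript length and sequencing depth), CCN1 was at 413 ± 40.3 in METTL3 shRNA libraries and 617 ± 2.59 in control libraries (SD, n = 3 each). TPM1 was at 477 ± 8.12 and 601 ± 66.4 FPKM in METTL3 shRNA and control libraries. In control libraries CCN1 and TPM1 did not differ beyond their spread, and in METTL3 shRNA libraries every value of TPM1 lay above those of CCN1. ACTA2 came next, at 101 ± 3.65 FPKM in METTL3 shRNA libraries and 119 ± 12.9 FPKM in control libraries, and then MYL9, at 65.3 ± 9.17 FPKM in METTL3 shRNA libraries and 91.3 ± 1.56 FPKM in control libraries, each apart from its neighbours in the order.

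CCN2, SRF, YAP1 and ANKRD1 formed a middle group. Their means ran from 13.8 to 17.1 FPKM in METTL3 shRNA libraries and from 14.9 to 19.9 FPKM in control libraries. By its mean CCN2 was the lowest of these 4 in METTL3 shRNA cells and the highest in control cells, where its range overlapped that of SRF, and that of SRF overlapped that of YAP1. In METTL3 shRNA cells ANKRD1 (from 12.84 FPKM) and YAP1 (from 13.19 FPKM) reached below the lowest value of CCN2 (13.35 FPKM), and the ranges of ANKRD1, YAP1 and SRF overlapped. TAGLN, at 2.69 ± 0.319 and 4.56 ± 0.304 FPKM in METTL3 shRNA and control libraries, and CNN1, at 0.0367 ± 0.00577 FPKM in METTL3 shRNA libraries and 0.183 ± 0.0666 FPKM in control libraries, were the lowest in both.

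**Figure D4:**
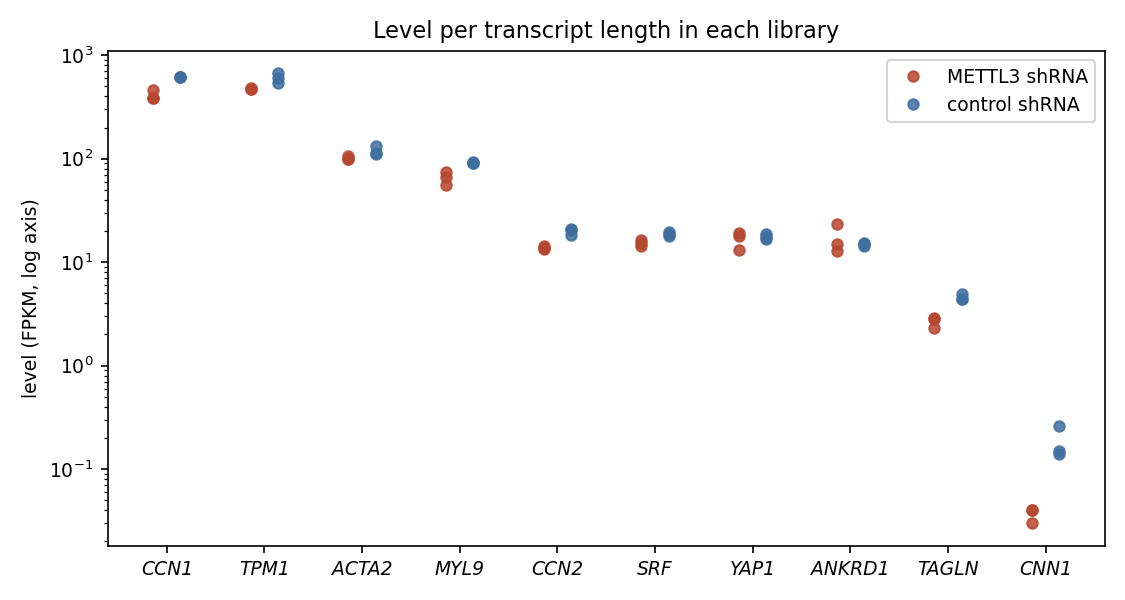
Deposited FPKM of the 10 genes in each library on a log axis, METTL3 shRNA (red) left of control shRNA (blue), in the order of the control means. CCN1 and TPM1 lead, a group of CCN2, SRF, YAP1 and ANKRD1 lies near 15 to 20 FPKM in control cells, and CNN1 is below 0.3.

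Within their protein families the members took very different shares of the summed FPKM. TPM1 made up 39.5% ± 2.05 of the 4 tropomyosin genes in METTL3 shRNA libraries and 42.5% ± 2.82 in control libraries (SD, n = 3 each), and these ranges overlapped. CCN1 made up 95.3% ± 0.281 and 96.1% ± 0.230 of the CCN family in METTL3 shRNA and control libraries. MYL9 was a minor form, with 4.18% ± 0.190 in METTL3 shRNA libraries and 4.89% ± 0.214 in control libraries of the sum with MYL12A and MYL12B, the ranges apart. TAGLN took 0.297% ± 0.0117 of the transgelins in METTL3 shRNA libraries and 0.403% ± 0.0147 in control libraries, of which TAGLN2 is the abundant form. ACTA2 took 3.63% ± 0.428 of the actins in METTL3 shRNA libraries and 3.01% ± 0.403 in control libraries. Its ranges overlapped, and the cytoplasmic actins made up most of the rest.

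The other genes of the pathways were read from lists drawn up by function. Earlier results of these data were known at that point, so the counts describe the lists and do not test them. Of 33 other contractile and actin-binding genes, 28 were tested, of which 6 fell, 0 rose and 22 did not pass (median log2 fold change −0.11). That is 21.4% called, against 33.5% of all tested genes in either direction. At an unadjusted p under 0.05, 2 were higher and 12 lower. Of all 18740 tested genes, 4073 were higher and 4191 lower at that threshold. DESeq2 called 0 higher and 9 lower (16.6% and 17.1% of all genes), and limma-voom 0 and 6 (16.5% and 16.8%). The genes of smallest p were CSRP1, a LIM protein of smooth muscle (−0.50, SE 0.09), CNN3, the acidic calponin (−0.36, SE 0.08), MYL6, the essential light chain of non-muscle myosin (−0.43, SE 0.09), and CALD1, caldesmon (−0.45, SE 0.12). The call of CALD1 was lost without METTL3 shRNA library B (−0.40, edgeR adjusted p = 0.0542). With library size scaling 14 were lower and 0 higher (25.2% and 10.6% of all genes). ACTA1, ACTC1, ACTG2, DES and TAGLN3, genes of muscle or neural cells, were not tested for low counts.

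Of 26 other YAP and TEAD target genes, all tested, 4 rose, 6 fell and 16 did not pass, with a median of 0.02 (−0.09 with library size scaling, where 4 rose and 9 fell, against 10.6% of all genes higher and 25.2% lower). The share called was 38.5%, near the 33.5% of all tested genes (16.5% higher and 16.9% lower). Those of smallest p moved both ways. CCDC80, a matrix protein, fell by 0.66 on the log2 scale (SE 0.08) and TGFB2, a transforming growth factor, fell by 0.84 (SE 0.11). The survivin gene BIRC5, which is also a gene of mitosis, rose by 0.80 (SE 0.10) and NT5E, the ecto-nucleotidase CD73, rose by 0.63 (SE 0.09). The other members that rose were the receptor kinase AXL (0.48, SE 0.08) and IGFBP3, a binding protein of insulin-like growth factors (0.52, SE 0.17). The call of IGFBP3 was lost without control library C (0.32, edgeR adjusted p = 0.0733), without METTL3 shRNA library A (0.48, 0.0888) and without METTL3 shRNA library B (0.44, 0.122), and by DESeq2 (adjusted p = 0.0800).

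Of 24 Hippo pathway regulators and partners of YAP, 22 were tested, of which 2 rose, 5 fell and 15 did not pass (median −0.03, and −0.14 with library size scaling, where 1 rose and 7 fell). The share called, 31.8%, was near the 33.5% of all tested genes. With library size scaling 10.6% of all genes were higher and 25.2% lower. The genes that fell were MOB1B, an activator of the LATS kinases (−0.33, SE 0.08), TEAD1, a DNA-binding partner of YAP (−0.33, SE 0.10), the kinases TAOK2 (−0.26, SE 0.08) and LATS1 (−0.29, SE 0.10), and the protocadherin FAT1 (−0.29, SE 0.10). Those that rose were FAT4 (0.50, SE 0.13) and STK4, the kinase MST1 (0.28, SE 0.09). The number called fell to 3 without control library C and to 4 without control library B or METTL3 shRNA library A or B. Fewer of all tested genes were called lower in these fits as well. Their share was 12.1% and 12.2% without control libraries C and B, and 13.1% and 10.2% without METTL3 shRNA libraries A and B. With all 6 libraries it was 16.9%. TEAD1 lost its call without control library B (−0.32, edgeR adjusted p = 0.0646) and FAT4 without METTL3 shRNA library B (0.34, 0.0589). STK4 lost its call without control library B or C or METTL3 shRNA library B (values of 0.20 to 0.28), and LATS1 without control library B or C or METTL3 shRNA library A or B (−0.32 to −0.20). FAT1 (−0.28 to −0.18) and TAOK2 (−0.24 to −0.21) lost theirs without control library A or C or METTL3 shRNA library A, with edgeR adjusted p from 0.0618 to 0.142 over these 4 genes.

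Of 14 SRF targets of the immediate-early class, 13 were tested, of which 1 rose, 4 fell and 8 did not pass (median −0.09). The share called was 38.5%, against 33.5% of all tested genes. FOSB, an AP-1 subunit, was at 0.869 ± 0.328 CPM in METTL3 shRNA libraries and 2.20 ± 0.614 CPM in control libraries (log2 fold change −1.34, SE 0.26). EGR1 (−0.76, SE 0.18), EGR3 (−1.44, SE 0.38) and the survival gene MCL1 (−0.31, SE 0.08) fell as well, EGR3 tested only through its control libraries (6, 7 and 13 counts in METTL3 shRNA libraries A, B and C and 28, 20 and 30 in control libraries A, B and C). ZFP36, which destabilises AU-rich mRNAs, rose by 0.53 (SE 0.07). The groups overlapped for EGR1, and EGR3 lost its call without METTL3 shRNA library A (−1.26, edgeR adjusted p = 0.0511) or B (−1.31, 0.0549).

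Of the relatives of CCN1, CCN2 and ANKRD1, CCN3 rose by 0.43 (SE 0.09), with 14.1 ± 0.292 CPM in METTL3 shRNA libraries and 10.5 ± 1.01 CPM in control libraries (SD, n = 3 each). ANKRD2, a muscle ankyrin repeat protein, fell (−0.84, SE 0.18), and ANKRD23 stood at 0.15 (SE 0.14) and did not pass. CCN4, CCN5 and CCN6 were not tested for low counts.

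**Figure D5:**
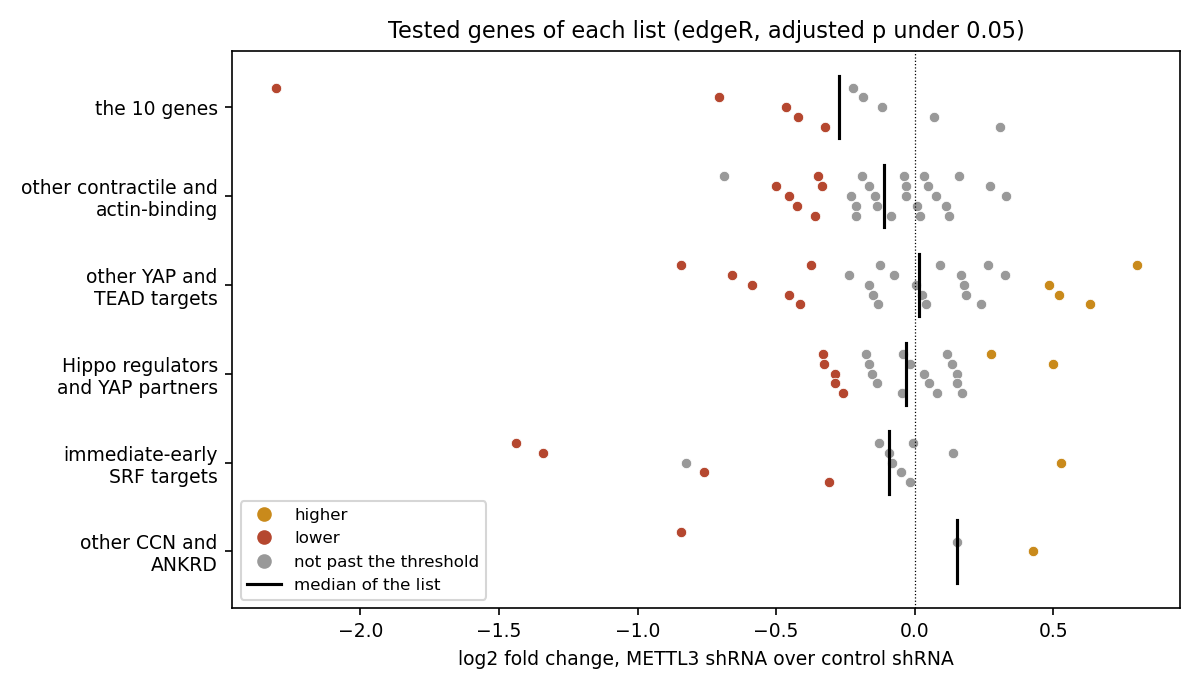
Log2 fold change (METTL3 shRNA over control shRNA) of every tested gene of the 10 genes and of the 5 other lists, coloured by the edgeR call, with each list's median as a black bar. The medians of the lists other than the 10 genes lie between −0.11 and 0.15, and of the first 2 rows 0 genes were called higher.

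For each member the gene of most similar profile was sought among 10553 named genes of at least 5 CPM, by the root mean square difference of centred log2 CPM over the 6 libraries. CCN1 lay closest to ZBTB9 (0.01), CCN2 to IFI35 (0.02), MYL9 to KRT10 (0.02), TAGLN to PSME2 (0.05) and TPM1 to TRIM16 (0.03). ACTA2 lay closest to TRIM28 (0.01), SRF to IRAK1 (0.02) and YAP1 to TRPC1 (0.02). CNN1 (CCL5, 0.26) and ANKRD1 (CCT6B, 0.12) had no close neighbour by that measure. The 6 libraries form 2 groups, so a gene with a like group difference comes out close by this measure.

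The transcripts of the members differed in how often they held GGACT, a common form of the m6A consensus. The longest coding transcript of CCN1 (2290 bases, GENCODE 29) held 5, or 2.18 per kilobase, MYL9 held 4 (1.42), TAGLN 3 (1.39) and ACTA2 2 (1.48). That of CCN2 (2339 bases) and of CNN1 (1848 bases) held 0. TPM1 and ANKRD1 had 0.505 per kilobase each, SRF 0.714 and YAP1 0.741, where the median of 13820 tested coding genes was 0.938 with quartiles of 0.572 and 1.40. Members that fell lay at both ends of this range. Other forms of the consensus were not counted, and the longest transcript need not be the one expressed. No methylation was measured, and a link of the motif to the changes was not tested.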

How the data were processed

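The authors deposited whole-number counts and FPKM values for 61860 Ensembl genes in 6 libraries. Per the submitters' processing notes, STAR 2.7.10b, Salmon and GRCh38 were used, with no role given, and with annotation release and strand setting not given in the sources used here. No value column was left unused. The quasi-likelihood test of edgeR 4.0.16 (R 4.3.3) was run on counts after filterByExpr and TMM, with Benjamini-Hochberg adjustment over 18740 genes at 0.05. SEs come from the F statistic and intervals are 95%. No library repeated another (chi-square over degrees of freedom within groups at least 15.2). At this depth the spread between libraries limits precision except for CNN1.

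The members and lists were chosen with earlier results of these data known. Named genes were METTL3, the members, the up to 4 genes of smallest p in each other list, genes in counts of 5 or fewer, and each member's nearest profile. Of the 61860 identifiers, 58308 were found in GENCODE 29 on GRCh38, used for positions and overlaps. Promoter sequences are from RefSeq (GRCh38.p14). A further gene list is not reported here.

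Alternatives were DESeq2-type size factors, library size scaling, DESeq2 1.42.0, limma-voom (limma 3.58.1), no filter, a 1 CPM filter, the limma fits to log2 FPKM with pseudocounts of 0.1 and 1 (at least 0.5 FPKM in 3 libraries, and for 1 also unfiltered), the column letter as a block, no mitochondrial transcripts, and each library left out.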

Additional observations from a re-analysis of the deposited data

How the results depend on the processing

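The falls of TAGLN, CCN1 and CCN2 held under all 17 alternatives, with log2 fold changes from −0.82 to −0.60, −0.58 to −0.43 and −0.53 to −0.38. CNN1, whose filter rested on the control libraries, was tested in 14, with values from −2.52 to −2.06 in the count fits and −0.19 on unfiltered log2(FPKM + 1), and its passing shows no stability. Leaving out 1 library gave 2053 to 3265 genes higher and 1959 to 3324 lower (both lowest without METTL3 shRNA library B), 4 to 6 members lower and 0 to 1 higher. It gave 4 to 6 contractile genes, 7 to 14 YAP targets, 3 to 7 Hippo genes, 4 to 5 immediate-early genes and 2 relatives of CCN and ANKRD called. Over all genes the share called lower ran from 10.2% without METTL3 shRNA library B to 17.4% without METTL3 shRNA library C. The ranges of the lists therefore hold this common change in the number of calls. Genes higher numbered 1985 with library size scaling, 1568 with log2(FPKM + 0.1), 1588 with log2(FPKM + 1) and 1027 with log2(FPKM + 1) unfiltered. Contractile genes called, all lower, numbered 14 with library size scaling (25.2% of all genes lower). They numbered 10 in both filtered FPKM fits (24.7% and 24.8% lower with pseudocounts of 0.1 and 1). The unfiltered FPKM fit called 6 YAP targets, 2 Hippo genes and 0 relatives, where 1027 of all 31319 genes were higher and 2244 lower. Without a count filter 1 member, ANKRD1, was higher. YAP1 turned sign with library size scaling (−0.0415), log2(FPKM + 0.1) (−0.0913) and log2(FPKM + 1), filtered or not (−0.0859 each). ANKRD23 turned in the FPKM fits (−0.38 with a pseudocount of 0.1 and −0.25 with 1). The cause was not tested.

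Whether column letters pair the libraries was not settled. The correlation of deviations of same-letter libraries across genes was 0.163 for A, −0.125 for B and 0.399 for C. Not every library correlated best with its own letter. Deviations from the mean of only 3 libraries per group depend on each other, so these values cannot decide it. With the letter as a replicate block, 3421 genes were higher and 3564 lower, against 3099 and 3171 without it. Then 6 members were lower, TPM1 added (−0.22, edgeR adjusted p = 0.0456).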
